A study of Mus musculus with 6 samples.

Results

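The Ms4a genes encode a family of small membrane proteins, and 9 of them are described here in bone marrow stem and progenitor cells of p65 knockout and wild-type mice. They are Ms4a1, Ms4a3, Ms4a4b, Ms4a4c, Ms4a4d, Ms4a6b, Ms4a6c, Ms4a6d and Ms4a7, out of 19938 genes measured. They were chosen by name, with earlier results of these data known, and each was read from the table row that the platform annotation gives to its symbol. Each had 1 such row, so the measured value that would have chosen between rows, the mean over the 6 arrays, decided nothing, and no row shared with another gene was used.

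By their titles, 3 arrays held RNA from mice wild-type for p65 and 3 from mice labelled p65 knockout. The titles do not say whether an array stood for 1 animal or a pool. NF-κB, a transcription factor of immune signalling, contains p65 (RelA) as one of its subunits, and the series title places the deletion in the blood-forming compartment. In both groups marrow cells were sorted that carried c-kit and Sca-1 but no Flk2 or lineage markers, a fraction rich in blood stem cells and the progenitors next to them. Strain, age, sex and the way the gene was deleted are not given in the sources used here.

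Ms4a proteins cross the membrane several times, with both ends inside the cell, and most are made in blood cells. The best known is CD20, the product of Ms4a1, a B cell surface protein and the target of antibody drugs. Several others work as partners of receptors, as the beta chain of the high-affinity IgE receptor (Ms4a2) does in mast cells and basophils. The genes lie in a cluster on mouse chromosome 19 and include close copies of one another, named as the Ms4a4 and Ms4a6 groups.

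The copies can be seen in the DNA before their start sites. RefSeq promoter windows (assembly GRCm38.p6) were found for 7 of the 9 genes, not Ms4a1 and Ms4a6d, and the 250 bases before the start were compared. The windows of Ms4a6c (chr19:11469118-11469367, plus strand) and Ms4a6b (chr19:11518309-11518558, plus strand) are shown because in both of these neighbouring copies every knockout signal lay above every wild-type signal, and the capitals mark their longest shared run, of 48 bases.
Ms4a6c: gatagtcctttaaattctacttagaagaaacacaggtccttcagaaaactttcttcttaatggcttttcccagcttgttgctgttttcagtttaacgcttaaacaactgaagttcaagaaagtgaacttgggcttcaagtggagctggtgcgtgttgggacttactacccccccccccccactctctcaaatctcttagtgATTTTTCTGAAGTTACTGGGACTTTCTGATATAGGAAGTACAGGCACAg
Ms4a6b: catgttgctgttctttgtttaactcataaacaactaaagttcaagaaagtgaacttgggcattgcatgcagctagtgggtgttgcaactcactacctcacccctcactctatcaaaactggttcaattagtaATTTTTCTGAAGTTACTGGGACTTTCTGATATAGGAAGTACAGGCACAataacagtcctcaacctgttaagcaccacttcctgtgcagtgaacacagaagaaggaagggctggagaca
The run begins 49 bases before the annotated start of Ms4a6c and 118 bases before that of Ms4a6b, and 152 of 182 columns matched over the best local alignment of the windows.

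The windows of Ms4a4c (chr19:11407411-11407660, plus strand) and Ms4a4b (chr19:11443308-11443557, plus strand) are shown as further copies. Ms4a4c rose in knockout cells, and Ms4a4b did not pass the threshold given below. Capitals mark the longest run that these windows share, of 20 bases.
Ms4a4c: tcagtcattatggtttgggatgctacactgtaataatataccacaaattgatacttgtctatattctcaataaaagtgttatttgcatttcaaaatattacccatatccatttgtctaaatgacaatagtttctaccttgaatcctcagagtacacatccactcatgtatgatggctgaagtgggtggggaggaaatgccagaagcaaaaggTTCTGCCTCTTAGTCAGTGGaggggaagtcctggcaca
Ms4a4b: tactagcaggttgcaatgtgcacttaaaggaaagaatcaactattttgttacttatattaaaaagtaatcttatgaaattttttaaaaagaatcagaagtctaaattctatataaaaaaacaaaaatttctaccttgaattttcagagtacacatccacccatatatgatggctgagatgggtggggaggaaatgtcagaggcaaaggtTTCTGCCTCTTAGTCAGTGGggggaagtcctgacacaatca
Here 184 of 251 columns matched. In the other 19 pairs among the 7 windows the longest shared run had 6 to 12 bases.

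Letters resembling binding sites were searched on both strands of these 250-base windows. The NF-κB consensus was found in 0 of the 7 windows, against 3.9% of all 32851 windows in the table. The letters TTNNGCAA, as in C/EBP sites, were found in 1, that of Ms4a4d, against 9.56% of all. The letters GAGGAA, as in sites of PU.1 and other ETS factors, were found in Ms4a4b and Ms4a4c, at 64 and 61 bases before the start, against 23.3% of all, and AGATAA, as in GATA sites, in 0, against 9.99%. None of these matches overlapped another, and the absence of letters from this window says nothing of binding elsewhere.

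Values are the authors' deposited log2 expression values, and a difference of 1 is a doubling of signal. The arrays had medians of 5.99 to 6.09 over the 19938 genes. Wild-type replicate 1 stood apart, with an SD over genes of 1.64 against 1.95 to 2.07 in the others, and with correlations of 0.951 to 0.963 to them, against 0.982 or more among the rest. As a mark of dim signal, the 95th percentile of 1027 olfactory receptor genes, which marrow is not thought to use, was taken in each array. It was 6.87 in wild-type replicate 1 and 5.39 to 5.71 in the others, with group means of 6.06 (wild-type) and 5.51 (knockout). It is called the olfactory receptor level here, and it is no test of detection. Rela, the gene of p65, was 7.52, 7.89 and 7.92 in the wild-type and 7.33, 7.48 and 7.35 in the knockout mice, a log2 fold change of -0.39, which did not pass the threshold (limma adjusted p = 0.209). Its knockout values all lay below its wild-type values. The Rela difference did pass under quantile normalization (-0.63, limma adjusted p = 0.0499), cyclic loess (-0.64, limma adjusted p = 0.0336) and array weights (-0.49, limma adjusted p = 0.0292). Leaving out wild-type replicate 1 gave -0.51 (limma adjusted p = 0.04), and over all alternatives the limma adjusted p of Rela ran from 0.0292 to 0.486.

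Of the 9 Ms4a genes, 3 rose in knockout cells, Ms4a3, Ms4a6c and Ms4a4c, 0 fell and 6 did not pass the threshold of a limma adjusted p under 0.05 over all genes. Among all genes 0.687% passed as higher and 0.13% as lower. In 4 of the 9, all knockout values lay above all wild-type values, as in 19.2% of all genes, and the groups overlapped in the other 5 (0 lay wholly below, against 15.4% of all genes). Without wild-type replicate 1 the number was again 3 higher and 0 lower, where 3.28% and 1.38% of all genes passed, and with the replicate number as a block 3 and 0, where 1.41% and 0.451% did. The family was picked out with these differences known, so the counts are a description. The median log2 fold change was 0.33 over the 9 genes and -0.04 over all genes.

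**Figure D1:**
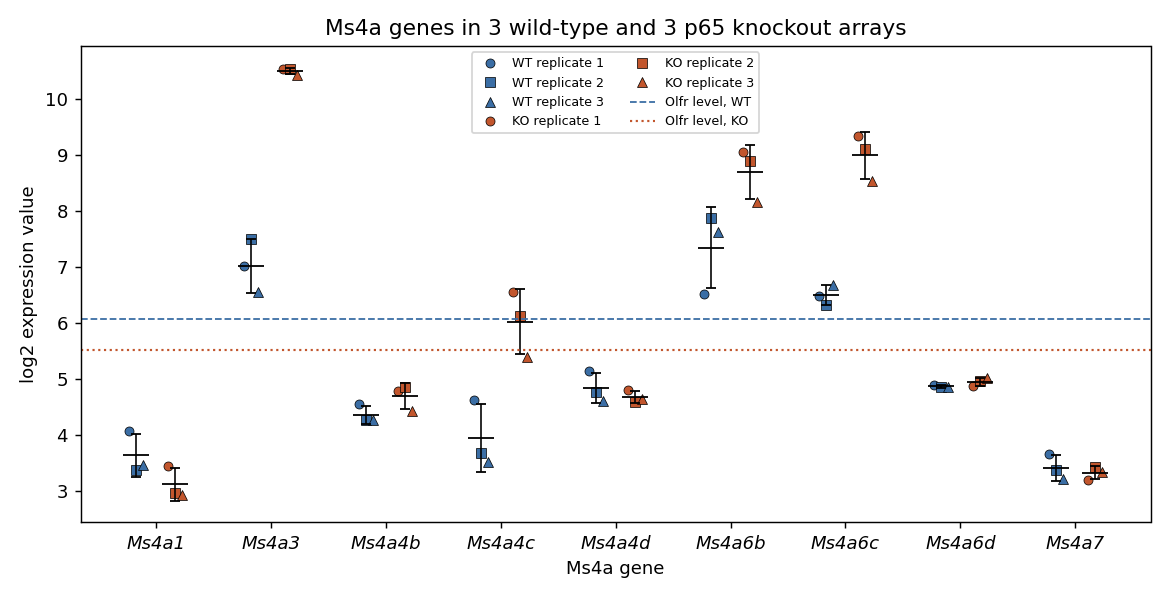
Log2 expression values (vertical axis) of the 9 Ms4a genes (horizontal axis) in each array, wild-type in blue and knockout in red, with a marker shape for each replicate. Horizontal ticks and bars are group means ± SD (n = 3 each), and the broken lines are the mean olfactory receptor levels of 6.06 (wild-type) and 5.51 (knockout). Ms4a3, Ms4a4c, Ms4a6b and Ms4a6c are the 4 genes whose groups do not overlap.

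Ms4a3, also named HTm4, is known as a gene of granulocyte-monocyte progenitors and is used to trace their descendants. It was 7.01, 7.51 and 6.54 in wild-type replicates 1 to 3 and 10.5, 10.5 and 10.4 in knockout replicates 1 to 3. All knockout values were high and close together, and the wild-type values spread over a range of about a doubling of signal. The mean rose from 7.02 ± 0.48 to 10.5 ± 0.06 (SD, n = 3 each), or 11.2-fold, with a log2 fold change of 3.48 (SE 0.23, 95% interval 2.95 to 4.01, limma adjusted p = 0.000794). It was the gene with rank 3 among all 19938 by log2 fold change. Ms4a3 lay above the olfactory receptor level in all 6 arrays, and without wild-type replicate 1 its log2 fold change was 3.48.

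Ms4a6c, which monocytes are known to make, was 6.47, 6.32 and 6.69 in the wild-type and 9.34, 9.11 and 8.53 in the knockout mice. The groups stood apart by more than either spread. The mean rose from 6.49 ± 0.18 to 8.99 ± 0.41 (SD, n = 3 each), or 5.66-fold, with a log2 fold change of 2.50 (SE 0.22, 95% interval 2.00 to 3.01, limma adjusted p = 0.00335). In wild-type replicate 1 its signal lay under the olfactory receptor level of that array, and in the other 5 arrays above it. Without that replicate the log2 fold change was 2.49.

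Its neighbour and copy Ms4a6b, known from T cells, was 6.52, 7.88 and 7.63 in the wild-type and 9.05, 8.90 and 8.15 in the knockout mice. The knockout values were all higher, but knockout replicate 3 lay close to wild-type replicate 2, and wild-type replicate 1 was the lowest by over 1 on the log2 scale, under the olfactory receptor level of that array. Its log2 fold change of 1.36 (SE 0.37, 95% interval 0.50 to 2.21) did not pass the threshold (limma adjusted p = 0.119). Without wild-type replicate 1 it was 0.94, again not past the threshold (limma adjusted p = 0.0836). The third gene of the Ms4a6 group, Ms4a6d, known from macrophages, was 4.89, 4.86 and 4.84 in the wild-type and 4.86, 4.95 and 5.02 in the knockout mice. These values overlapped, all lay under the olfactory receptor level, and the log2 fold change was 0.08 (95% interval -0.21 to 0.37). The log2 fold change of Ms4a6c thus exceeded that of Ms4a6b by 1.14 and that of Ms4a6d by 2.42, differences that were not tested.

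In the Ms4a4 group, Ms4a4c was 4.63, 3.68 and 3.51 in the wild-type and 6.55, 6.12 and 5.39 in the knockout mice. The groups did not overlap, and each spread over about 1 on the log2 scale. The mean rose from 3.94 ± 0.60 to 6.02 ± 0.59 (SD, n = 3 each), or 4.23-fold, with a log2 fold change of 2.08 (SE 0.36, 95% interval 1.25 to 2.91, limma adjusted p = 0.0483). Wild-type signals all lay under the olfactory receptor level, as did that of knockout replicate 3, so the size of the rise is uncertain. The call stood close to the threshold. With the replicate number as a block the limma adjusted p was 0.000582, and without wild-type replicate 1 it was 0.0152 (log2 fold change 2.43). It was lost on leaving out any other array, with limma adjusted p of 0.0864 and 0.0904 for leaving out wild-type replicates 2 and 3 in turn, and of 0.236, 0.231 and 0.0836 for leaving out the knockouts in turn.

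Ms4a4b, known from T cells, was 4.54, 4.26 and 4.26 in the wild-type and 4.78, 4.86 and 4.43 in the knockout mice. Knockout replicate 3 fell within the wild-type range, all values lay under the olfactory receptor level, and the log2 fold change of 0.33 (95% interval -0.05 to 0.72) did not pass (limma adjusted p = 0.274). Ms4a4d was 5.13, 4.77 and 4.61 in the wild-type and 4.79, 4.59 and 4.63 in the knockout mice. Its groups overlapped under the olfactory receptor level, with a log2 fold change of -0.16 (95% interval -0.56 to 0.23) that turned positive under quantile and cyclic loess normalization. The log2 fold change of Ms4a4c exceeded that of Ms4a4b by 1.75, which was not tested. Sequences of the array probes were not used here, so signal shared between copies was not tested.

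Ms4a1, the CD20 gene of B cells, was 4.07, 3.36 and 3.46 in the wild-type and 3.44, 2.96 and 2.93 in the knockout mice. The groups overlapped through replicate 1 of the knockouts, and the log2 fold change of -0.52 (95% interval -1.05 to 0.00) did not pass (limma adjusted p = 0.234). Ms4a7, known from macrophages, was 3.65, 3.37 and 3.20 in the wild-type and 3.20, 3.43 and 3.33 in the knockout mice. Its log2 fold change was -0.09 (95% interval -0.46 to 0.28), a sign that turned under quantile and cyclic loess normalization and without wild-type replicate 1. Both genes lay under the olfactory receptor level in all 6 arrays. The 8407 genes of the array whose means lay under it in both groups had a median log2 fold change of -0.23.

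**Figure D2:**
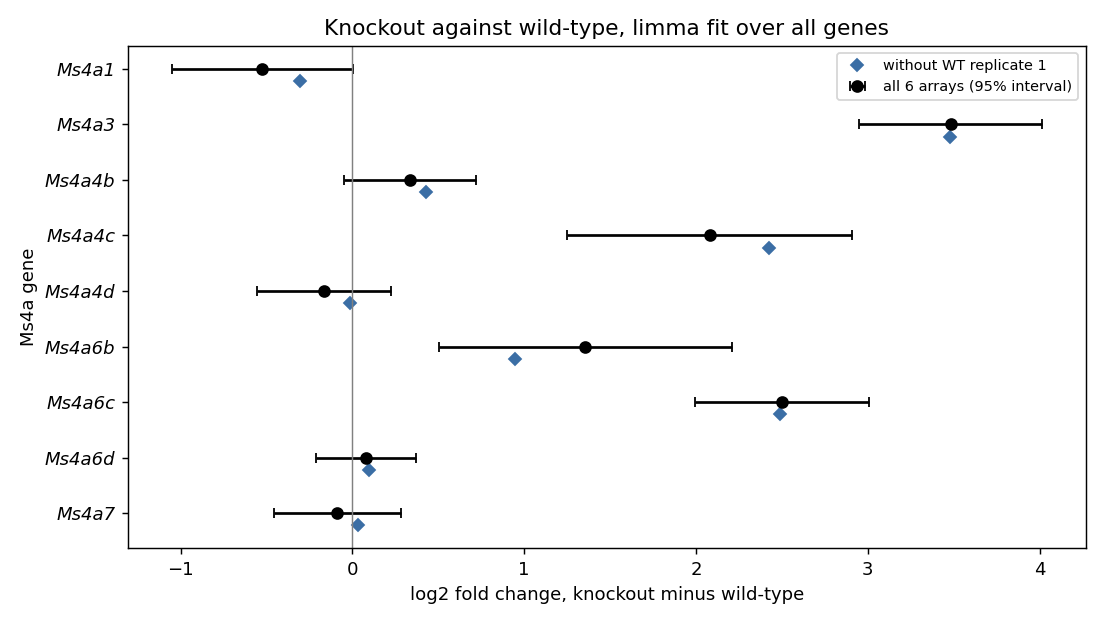
Log2 fold change of knockout minus wild-type (horizontal axis) for the 9 Ms4a genes (vertical axis), from the limma fit over all genes, with 95% intervals for all 6 arrays and diamonds for the value without wild-type replicate 1. Ms4a3, Ms4a6c, Ms4a4c and Ms4a6b lie between 1.36 and 3.48, and the other 5 between -0.52 and 0.33.

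The rest of the family was read from a list of 13 related genes, of which 10 were measured, and from Ms4a12 and Ms4a19, which were added once the annotation had been read. Of these 12 genes, 1 rose, Ms4a2, 0 fell and 11 did not pass, where 0.687% of all genes passed as higher and 0.13% as lower. The 11 had log2 fold changes of -0.52 to -0.06. Ms4a15, Tmem176a and Tmem176b apart, their wild-type means lay under the olfactory receptor level. Genes under that level in both groups had a median of -0.23. Ms4a2 was 5.25, 6.22 and 5.31 in the wild-type and 7.44, 7.14 and 7.40 in the knockout mice, with no overlap. The rise was 3.32-fold (log2 fold change 1.73, SE 0.26; limma adjusted p = 0.035), and its wild-type mean lay under the olfactory receptor level. That call ended when wild-type replicate 3 was left out (limma adjusted p = 0.0812), when knockout replicate 1, 2 or 3 was (0.212, 0.158 and 0.2), and under quantile normalization (0.0676). Ms4a15 and the distant relatives Tmem176a and Tmem176b, ion channel genes of dendritic and other cells, lay above the olfactory receptor level in every array. Their log2 fold changes were -0.11, -0.07 and -0.06. That of Ms4a15 turned positive without wild-type replicate 1, and those of Tmem176a and Tmem176b did with arrays centred on their medians.

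Along chromosome 19, RefSeq lists 22 protein-coding genes from Ms4a10 to Ms4a3, of which 21 are Ms4a genes and 19 of those were measured. From Ms4a10 through Ms4a4a, 11 measured genes in a row had log2 fold changes below 0. The signs of Ms4a5, Ms4a7, Ms4a8a, Ms4a10, Ms4a15 and Ms4a4a turned under other normalizations, with array weights or without wild-type replicate 1. Of the 11, only Ms4a15 had means above the olfactory receptor level in both groups, and Ms4a8a had one in the knockout alone. The genes of the array with means under that level in both groups had a median log2 fold change of -0.23. Next along the chromosome came Ms4a4c, Ms4a4b, Ms4a6c and Ms4a6b, then Ms4a4d and Ms4a6d, and then Ms4a2 and Ms4a3 at the end. Counted from the first of the 4 genes that rose to the end, the stretch held 8 measured genes, with genes that did not pass among them. This stretch was drawn from the same calls, so it holds all 4 by construction, and position was not tested. The 3 nearest measured genes on the Ms4a10 side were Zp1, Ptgdr2 and Ccdc86 and those on the Ms4a3 side Oosp2, Oosp1 and Oosp3. They had log2 fold changes of -0.46 to 0.59, with 0 past the threshold (limma, unadjusted p under 0.05 in 1 of the 6, Oosp1).

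**Figure D3:**
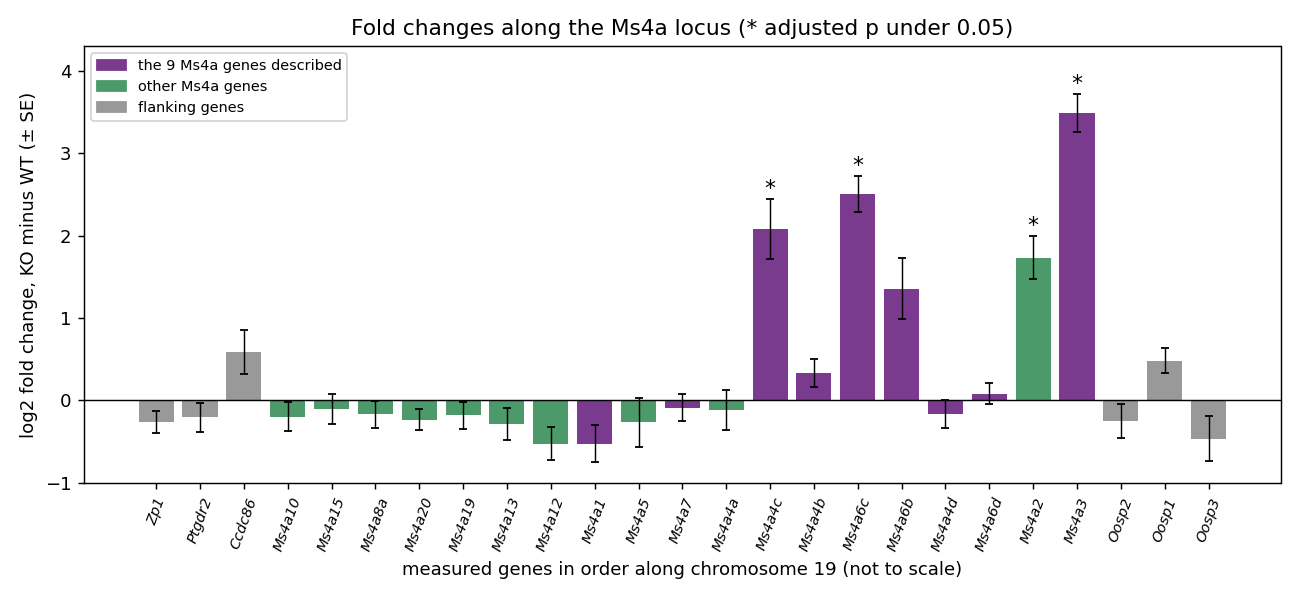
Log2 fold change of knockout minus wild-type (vertical axis, bars with ± SE from limma) of the measured genes in their order along chromosome 19 (horizontal axis, not to scale). Asterisks mark limma adjusted p under 0.05, which 4 genes reach, Ms4a4c, Ms4a6c, Ms4a2 and Ms4a3. Their position along the cluster was not tested.

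Genes that mark the cell types in which these family members are known were read from the same arrays. Their lists were chosen with earlier results of these data known. Among all genes 0.687% passed as higher and 0.13% as lower. In sorted bulk cells, more cells of a type and more RNA per cell cannot be told apart. Of 12 markers of granulocyte-monocyte progenitors, 8 rose and 0 fell, and the mean of the list was 7.40 to 7.71 in wild-type and 9.0 to 9.38 in knockout arrays. Elane, the neutrophil elastase gene, rose by 3.98 on the log2 scale (limma adjusted p = 0.00027), Ly86, a partner of a Toll-like receptor relative, by 3.07 (limma adjusted p = 0.000794), and Prtn3, the proteinase 3 gene, by 2.09. Ccr2, a monocyte chemokine receptor gene, was counted in this list as 1 of the 8, not among the monocyte and macrophage markers below. Of 15 measured monocyte and macrophage markers, 1 rose, Csf1r, the receptor gene for the macrophage growth factor CSF-1 (log2 fold change 1.71, limma adjusted p = 0.00871), and 0 fell. By sign, 9 of the 15 were negative and 6 positive, with a median log2 fold change of -0.06. The mean of that list was 5.69 to 5.95 in wild-type and 5.86 to 5.98 in knockout. Above the olfactory receptor level lay 6 of its 15 genes in wild-type and 9 in knockout.

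Of 11 measured B cell markers 0 rose and 0 fell (limma, 2 at an unadjusted p under 0.05). Their mean was 6.01 to 6.14 in wild-type and 5.88 to 6.61 in knockout, and knockout replicate 2 was the highest. Of 13 measured T and NK cell markers, 1 rose, Nkg7, a gene of cytotoxic granules (log2 fold change 1.09, limma adjusted p = 0.0483), and 0 fell. The other 12 had negative log2 fold changes, none past the threshold, and the median of the list was -0.31. Among them were Themis, a gene of T cell development (-0.84), the T cell surface gene Cd3d (-0.57) and the NK cell receptor gene Ncr1 (-0.53). Their knockout values all lay below the wild-type ones, as in 15.4% of all genes. Without wild-type replicate 1 their log2 fold changes were -0.60, -0.55 and -0.37. Their means lay under the olfactory receptor level in both groups, where the median over all genes was -0.23. Above that level lay 3 of the 13 genes in wild-type and 3 in knockout. The mean of the T and NK cell markers was 5.22 to 5.58 in wild-type and 5.07 to 5.18 in knockout. Of 9 measured mast cell and basophil markers, 2 rose, Fcer1a, the IgE receptor alpha chain gene (log2 fold change 3.05, limma adjusted p = 0.00027), and Hdc, the histidine decarboxylase gene (1.66). Their mean was 6.87 to 7.14 in wild-type and 7.76 to 8.07 in knockout. Of 10 mature neutrophil markers, 1 rose, Lcn2, the lipocalin 2 gene (log2 fold change 2.71, limma adjusted p = 0.00335), and 0 fell. By sign, 7 of the 10 were negative and 3 positive, with a median log2 fold change of -0.16. S100a9, a calcium-binding protein gene of neutrophils, had -0.71 and the gelatinase gene Mmp9 had -0.39, neither past the threshold. Both had knockout values all below the wild-type ones, as in 15.4% of all genes. S100a9 was highest in wild-type replicate 1 (8.07, against 6.72 and 7.17 in replicates 2 and 3). Without that replicate its log2 fold change was -0.34. The means of Mmp9 lay under the olfactory receptor level in both groups. The mean of the neutrophil markers was 5.20 to 5.73 in wild-type and 5.52 to 5.70 in knockout. Of 11 measured stem cell markers, 1 fell, the transcription factor gene Hlf, by 1.27 on the log2 scale (limma adjusted p = 0.0485), and 0 rose. All 11 had negative log2 fold changes, with a median of -0.69 (limma, 8 at an unadjusted p under 0.05). The mean of the stem cell markers was 7.22 to 7.69 in wild-type and 6.60 to 6.90 in knockout. Without wild-type replicate 1 the numbers were 9 of 12 higher for granulocyte-monocyte progenitors, 3 of 15 higher for monocytes and macrophages, 2 of 10 higher for mature neutrophils, 3 of 9 higher for mast cells and basophils, 9 of 11 lower for stem cells, and 1 higher (Nkg7) and 1 lower (Cd3d, limma adjusted p = 0.0492) of 13 for T and NK cells. With the replicate number as a block, 4 of 11 stem cell markers were lower, 4 of 9 mast cell and basophil markers higher, 2 of 15 monocyte and macrophage markers higher and 2 of 10 neutrophil markers higher. Over all genes, 3.28% passed as higher and 1.38% as lower without wild-type replicate 1, and 1.41% and 0.451% with the block. The wild-type means of Fcer1a, Lcn2, Csf1r and Ly86 lay under the olfactory receptor level, so the sizes of these 4 rises are uncertain. The part of these markers in the Ms4a values was not tested.

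The 3 knockout arrays did not carry the Ms4a genes alike. Ms4a4c, Ms4a6b and Ms4a6c each had their highest value in knockout replicate 1 and their lowest in knockout replicate 3, apart by 1.16 for Ms4a4c, 0.89 for Ms4a6b and 0.80 for Ms4a6c on the log2 scale. Ms4a3 differed by 0.11 between its highest and lowest knockout arrays. A list of 9 measured interferon-stimulated genes, added after the values were seen, had means of 8.34, 7.21 and 6.86 in knockout replicates 1 to 3 and of 6.54, 6.86 and 6.90 in wild-type. Of the 9, 1 rose (Gbp3, limma adjusted p = 0.0444) and 0 fell, against 0.687% and 0.13% of all genes. All 9 log2 fold changes were positive, with a median of 0.64. In wild-type replicate 1 the list was lowest, as Ms4a6b was, while Ms4a4c was highest there. Granulocyte-monocyte progenitor markers had 9.24, 9.38 and 9.0 in the knockouts. The part of either list in the spread of the Ms4a genes was not tested.

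**Figure D4:**
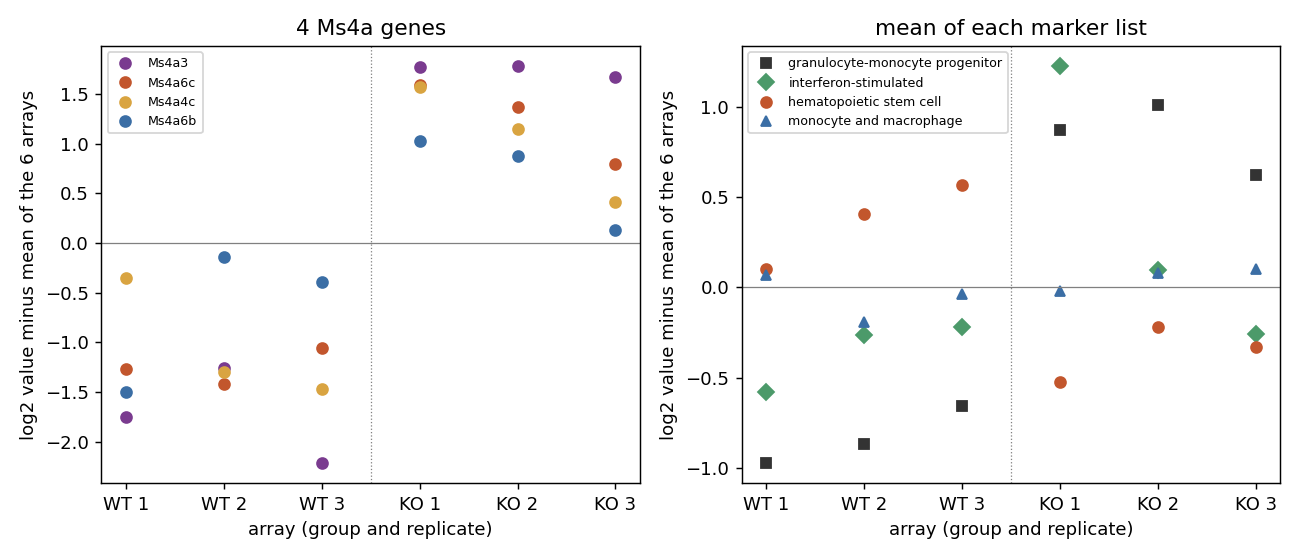
Left, log2 value minus the gene's mean over the 6 arrays (vertical axis) for Ms4a3, Ms4a6c, Ms4a4c and Ms4a6b in each array (horizontal axis). Right, the same for the mean of each marker list, where interferon-stimulated genes are highest in knockout replicate 1 and granulocyte-monocyte progenitor genes are high in all 3 knockouts.

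Genes with the profile most like that of a member were ranked by the mean absolute difference over the 6 arrays, after each gene was centred on its own mean. This was done for the 5 members whose values ranged over more than 1 on the log2 scale. Nearest to Ms4a3 were Anxa3, an annexin gene, at 0.21, Hp, the haptoglobin gene, at 0.29 and Ly86 at 0.36. Nearest to Ms4a6c were Prss57, a neutrophil serine protease gene, at 0.18, Mpeg1, a pore-forming protein gene of macrophages, at 0.18 and Alas1, an enzyme gene of heme synthesis, at 0.19. Nearest to Ms4a4c were Clec5a, a myeloid lectin receptor gene, at 0.13, the monocyte chemokine receptor gene Ccr2 at 0.29 and Cybb, a subunit gene of the phagocyte NADPH oxidase, at 0.29. Nearest to Ms4a6b were Tfrc, the transferrin receptor gene, at 0.16, Cers6, a ceramide synthase gene, at 0.17 and Parp14 at 0.20. Tfrc, Cers6 and Parp14 had their lowest value in wild-type replicate 1, as Ms4a6b did. They were picked for likeness to Ms4a6b over these same arrays, so the choice favoured a shared low value. Nearest to Ms4a1, whose signal was dim throughout, were Deup1, Hamp2 and Asxl3, each within 0.06. These distances describe 6 arrays and were not tested.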

How the data were processed

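Per the labels' protocols, sorted cells were lysed directly, and their RNA (Qiagen RNeasy) was amplified with the Ovation Pico WTA V2 system of NuGEN. The authors deposited log2 expression values for 6 arrays. Partek, Affymetrix Expression Console and RMA, a background correction, normalization and probe summary on the log2 scale, are named in the submitters' processing notes. The array is the Mouse Exon 1.0 ST in the design text, but another platform in the annotation supplied for the rows, and this was not settled here. Of 35557 rows, 21789 had 1 gene symbol, 1621 several and 12147 none. The highest row of each gene was kept, which gave 19938 genes. Columns of other samples numbered 0.

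Groups and replicate numbers come from the titles. The genotypes were compared by the two-sided moderated test of limma 3.58.1 in R 4.3.3 without covariates, and p-values were adjusted after Benjamini-Hochberg over the 19938 genes, with a threshold of 0.05. The code was tested on simulated data. The titles do not say whether a sample was 1 animal or a pool, and the number of arrays limits the precision. Same-numbered arrays deviated together (r = 0.368, 0.119 and 0.162, minimum 0.1), so a fit with the replicate number as a block is given as an alternative. Arrays 2 and 3 correlated more strongly across numbers (0.183 and 0.195) than within them, so their pairing is uncertain. Named genes were the 9 members, the rest of the family, up to 4 genes of each marker list by p, the nearest 3 genes of members ranging over 1, and target genes. Members and lists were chosen with earlier results of these data known. Alternatives covered normalization, dim genes, variance models, row choice and each array left out. Identity of proteins was not analysed here.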

Additional observations from a re-analysis of the deposited data

How the results depend on the processing

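Of the 9 Ms4a genes, 2 to 4 were higher and 0 lower under all 17 alternatives, 16 fixed in advance and 1 added after seeing the data. Ms4a3 (log2 fold change 3.14 to 3.72) and Ms4a6c (2.23 to 2.73) stayed past the threshold in all 17. Ms4a4c did in 10 of 16, and was also lost with robust variance estimation (limma adjusted p = 0.0515). Ms4a6b passed in 1 of 17, with array weights (1.01, limma adjusted p = 0.0476). The replicate block kept 3 higher and 0 lower and changed no call among the Ms4a genes. The median log2 fold change of the 9 was 0.57 under quantile and also 0.57 under cyclic loess normalization, 0.54 under quantile normalization without wild-type replicate 1 (the added alternative), and 2.50 over the 3 genes left without dim genes. It ran from 0.25 to 0.46 on leaving out 1 array.

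Signs turned only in genes that did not pass. Under quantile normalization Ms4a4d was 0.057, Ms4a7 0.13, Ms4a4a 0.11 and Ms4a10 0.0021, and under cyclic loess normalization 0.066, 0.12, 0.096 and 0.0011. With array weights Ms4a7 was 0.049, Ms4a4a 0.078 and Ms4a5 0.057. With centring on medians Tmem176a was 0.0053 and Tmem176b 0.019. On leaving out 1 array in turn, Ms4a7 ran from -0.19 to 0.034, Ms4a4a from -0.29 to 0.15, Ms4a5 from -0.49 to 0.12 and Ms4a15 from -0.24 to 0.045, each highest without wild-type replicate 1, and Tmem176a from -0.23 to 0.028 and Tmem176b from -0.14 to 0.058, highest without wild-type replicate 3. Under quantile normalization without wild-type replicate 1 Ms4a4d was 0.10, Ms4a7 0.10, Ms4a4a 0.22, Ms4a5 0.17 and Ms4a8a 0.076. The cause was not tested.

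Over all genes the fit called 137 higher and 26 lower. It called 653 and 276 without wild-type replicate 1, 282 and 90 with the replicate block, 77 and 38 under quantile and 154 and 98 under cyclic loess normalization, 288 and 26 with centring, 491 and 62 without dim genes, 1117 and 482 with array weights, 241 and 192 under the added alternative, and 21 to 65 higher and 0 to 10 lower without any other array. Dim signal limits the 5 genes under the olfactory receptor level in both groups, where a change could go unseen.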
